A study of Mus musculus with 23 samples.

Results

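Mitosis and spindle genes were followed here in single-cell libraries of mouse blood stem and progenitor cells: a set of 37 genes taken by name from a feature list of 32285. The members are the cyclins and kinases that start mitosis (Ccnb1, Ccnb2, Cdk1, Plk1, Aurka, Aurkb), the degradation machinery (Cdc20, Ube2c), checkpoint and kinetochore genes (Bub1, Bub1b, Cenpa, Cenpe, Cenpf, Knstrn, Nuf2, Ndc80), and the chromosomal passenger genes Birc5 and Cdca8. They also hold the motors (Kif11, Kif20a, Kif20b, Kif23, Kif2c, Kif4), genes of the spindle poles and fibres (Aspm, Tpx2, Nusap1, Prc1, Hmmr, Tacc3, Ckap2, Ckap2l), genes of cell separation (Ect2, Anln), the mitotic entry gene Cdca3, and Top2a and Mki67. All 37 members were found in each of the 11 gene-expression libraries, and all 37 passed the filter on low counts in every fit of whole libraries and of surface gates.

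Cells make these transcripts late in the cycle. Cyclin B with Cdk1 drives entry into mitosis, the Aurora and Polo-like kinases build the spindle, and the spindle checkpoint holds the cell until Cdc20 and Ube2c let the anaphase-promoting complex destroy cyclin B. Long-term blood stem cells of adult marrow are mostly out of cycle, whereas the multipotent progenitors (MPP) and the early B cell precursors downstream of them divide often, so these genes are a common readout of dividing cells in marrow.

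The study compared loss of Jarid2, a co-factor of Polycomb repressive complex 2, with loss of Ezh2, the catalytic subunit of that complex. All mice, Controls included, carried the Mx1-Cre label, a Cre driven by an interferon-inducible promoter, and the knockouts (KO) had floxed Jarid2 or floxed Ezh2 alleles. The cells were KSL cells of bone marrow, which bear c-Kit and Sca1 and lack lineage markers. The baseline experiment used untransplanted mice 2 months old, with 1 male and 1 female library for every genotype (Control, Ezh2 KO, Jarid2 KO), stained with 6 antibodies. The transplant experiment used donor KSL cells (CD45.2) taken 18 weeks after 500000 donor and 500000 CD45.1 competitor marrow cells had been given to lethally irradiated recipients, with 1 Control, 2 Ezh2 KO and 2 Jarid2 KO libraries. The labels do not say whether a library pooled animals, so p-values measure the spread between these libraries only.

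Of 97066 barcodes, 73310 cells were kept, between 4354 and 9208 per library, with 67533820 to 126346471 UMIs (counted transcript molecules) per library. The median cell held 10751 to 12665 UMIs at baseline and 11760 to 17610 after transplantation. Libraries shared 4 to 30 cell barcodes in pairs, at most 0.392% of the smaller library. Ezh2 stood at 209 and 193 CPM (UMIs scaled to one library total) in the male and female baseline Controls and at 163 and 148 in the Ezh2 KO libraries, and after transplantation at 184 in Control and 38.9 and 47.1 in Ezh2 KO. Jarid2 went against its label: it stood at 159 and 150 CPM in baseline Controls and 215 and 204 in the libraries labelled Jarid2 KO, and after transplantation at 38.4 in Control and 57.2 and 57.4 in the libraries labelled Jarid2 KO. The kit reads the 3′ end of transcripts and the labels do not name the deleted exons, so this value does not check the deletion. The transplant groups also differed in sex: cells of female type (Xist without Y-linked UMIs) were 59.5% of the Control library, 48.3% and 49.9% of the libraries labelled Jarid2 KO, and 0.0163% and 0.0511% of the Ezh2 KO libraries. Cells of male type (Y-linked UMIs without Xist) numbered 800 in the Control library and 1391 and 1618 in the libraries labelled Jarid2 KO. Those libraries thus held cells of both sexes. Kit was measured at 241 to 295 CPM at baseline and 125 to 159 after transplantation, Ly6a (the gene of Sca1) at 49.3 to 74.1 and 19.2 to 33.9, and the sum of 12 stem cell markers at 1167 to 1697 and 204 to 236. The experiments also differ in counting software, so levels are not compared between them by a test.

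Promoters of most members shared short sequence elements. Windows of 300 bases, from 250 before to 50 after the start of each gene, were read from RefSeq for GRCm38.p6, where 34 of the 37 members had an entry (Kif20a, Aurkb and Tpx2 did not). The letters TTTGAA, searched on both strands, are the core of the cell cycle genes homology region, an element known to restrain such promoters outside late cycle. They were present in 26 of the 34 members (76.5%), against 18.1% of all 27025 promoters of this length. The letters CCAAT, also on both strands, were in 25 members (73.5%) against 37.9% of all promoters, and at least 2 copies were in 18 members (52.9%) against 12.2%. Both motifs were in 22 members (64.7%) and in 7.12% of all promoters, and TTTGAA lay within 50 bases of the start in 23 members (67.6%) and in 4.92% of all. Birc5, Nusap1, Knstrn, Nuf2 and Tacc3 had neither motif in the window. Matches of the motifs can share 1 or 2 end bases and were counted separately, so 2 copies of CCAAT can be overlapping matches on opposite strands. The 120 bases before the start follow for 6 members that recur in the results below, on the coding strand from 5′ to 3′, with capitals marking both motifs on either strand. Cdk1 (chr10:69352913-69353032, minus strand), Cdc20 (chr4:118437344-118437463, minus), Ube2c (chr2:164769809-164769928, plus), Top2a (chr11:99024190-99024309, minus) and Kif11 (chr19:37376262-37376381, plus) hold both motifs there, and Ccnb1 (chr13:100786487-100786606, minus) is shown as a member with CCAAT and no TTTGAA in this stretch.
Cdk1: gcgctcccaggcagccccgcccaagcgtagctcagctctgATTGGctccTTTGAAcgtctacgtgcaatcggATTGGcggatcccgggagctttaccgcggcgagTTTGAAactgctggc
Cdc20: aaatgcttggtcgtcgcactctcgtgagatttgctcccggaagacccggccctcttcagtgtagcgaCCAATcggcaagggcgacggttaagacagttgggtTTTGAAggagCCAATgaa
Ube2c: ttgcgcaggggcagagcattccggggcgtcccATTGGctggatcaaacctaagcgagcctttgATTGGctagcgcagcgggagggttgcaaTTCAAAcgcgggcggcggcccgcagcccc
Top2a: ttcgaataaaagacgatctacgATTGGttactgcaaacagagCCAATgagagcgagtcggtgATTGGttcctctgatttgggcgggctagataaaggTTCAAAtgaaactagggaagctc
Kif11: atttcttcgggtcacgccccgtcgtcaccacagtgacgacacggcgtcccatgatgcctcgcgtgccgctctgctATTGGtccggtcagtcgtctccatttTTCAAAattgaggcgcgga
Ccnb1: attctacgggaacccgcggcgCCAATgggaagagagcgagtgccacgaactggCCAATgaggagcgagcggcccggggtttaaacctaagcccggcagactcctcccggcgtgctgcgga
A match is a run of letters in a window and was not tested as a binding site.

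Member transcripts were concentrated in a minority of baseline cells. Every cell with at least 5000 UMIs was thinned to 5000, and a cell with at least 5 member UMIs among them is called mitosis-high here. The name stands for this count and not for a cell in mitosis, since members such as Top2a and Aurkb were nearly as high in replicating cells (below). Mitosis-high cells made up 24.7% (exact binomial 95% interval 23.6% to 25.8%) and 25.4% of the male and female baseline Controls, 34.6% and 30.3% of Ezh2 KO, and 23.4% and 23.8% of the libraries labelled Jarid2 KO. Both Ezh2 KO libraries lay above all other baseline libraries. After transplantation the shares were 58.1% in Control, 48.9% and 51.9% in Ezh2 KO libraries and 50.1% and 53.3% in the libraries labelled Jarid2 KO, with Control highest. Intervals cover counting error only. Unthinned cells gave 33.8% to 46.7% at baseline and 73.5% to 83.7% after transplantation. Without thinning, Control was not highest after transplantation, as the mean of the libraries labelled Jarid2 KO exceeded it.

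**Figure D1:**
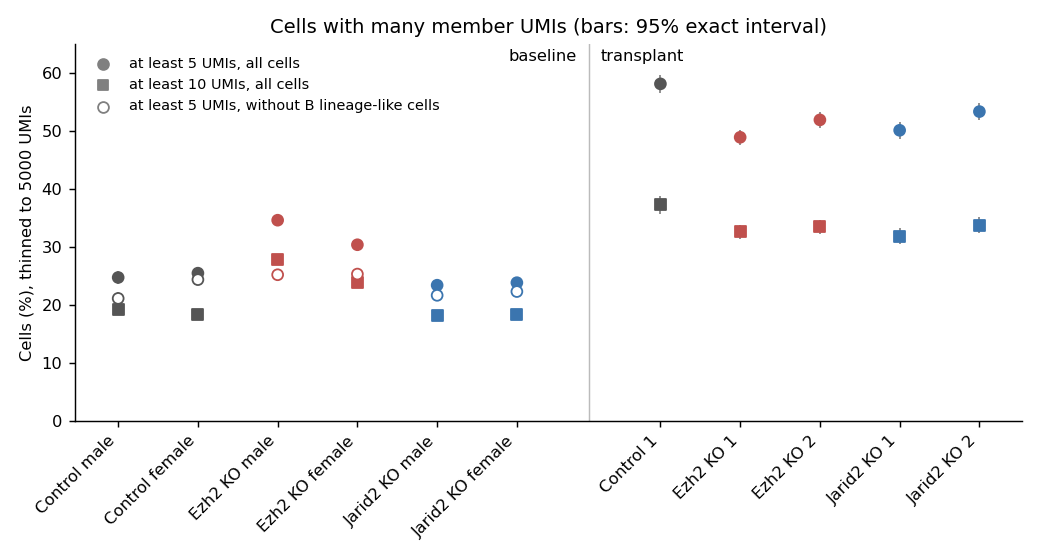
Share of cells in percent (y axis) with at least 5 (circles) or at least 10 (squares) member UMIs among 5000 thinned UMIs in each of the 11 libraries (x axis), with exact binomial 95% intervals as bars, and the share of at least 5 without B lineage-like cells at baseline (open circles). The Ezh2 KO libraries are highest at baseline (34.6% and 30.3%, and 25.2% and 25.3% without B lineage-like cells), and Control is highest after transplantation (58.1%).

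The cut divided the experiments unequally. At baseline 21.0% to 30.7% of thinned cells had no member UMI, and mitosis-high cells averaged 25.1 to 34.3 member UMIs against 1.04 to 1.22 in the remaining cells. After transplantation 3.27% to 6.79% had none, the averages were 20.7 to 23.6 against 2.03 to 2.33, and the share of cells near the cut was 35.0% to 40.2%, against 13.7% to 16.6% at baseline. Cells with at least 10 member UMIs made up 18.1% to 27.8% of baseline and 31.8% to 37.3% of transplant libraries. Mitosis-high cells were also deeper, with medians of 18087 to 21027 UMIs against 9974 to 11520 in the other baseline cells. The part of depth, and of the higher member UMIs outside mitosis-high cells, in the transplant shares was not tested.

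Each member followed this division when it was left out of the count that defined it. At baseline the median member had 95.2% of its UMIs in cells that were mitosis-high by the other 36 members, from 73.6% for Kif23, a motor of the central spindle, to 99.1% for Hmmr, a spindle protein and hyaluronan receptor. Ube2c, which feeds ubiquitin to the anaphase-promoting complex, had 98.8% there, Mki67, the gene of the Ki-67 proliferation antigen, 95.2%, and Cdk1 88.8%. After transplantation the median was 93.1%, from 85.4% for Ckap2 to 97.8% for Aspm. Mitosis-high cells were a larger share of cells after transplantation, and they were deeper than the other cells in both experiments. The share of all UMIs that they held is not given, so the medians of the experiments are not compared.

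The members split by their timing. Among cells with at least 10 member UMIs, cells above the median of a replication gene list (Mcm genes, Pcna and others) were set against cells below it within each library. Ube2c was lowest in the replicating cells, by a median over 11 libraries of -2.62 on the log2 scale, followed by the centromeric histone Cenpa (-2.24), the spindle pole gene Aspm (-2.19), Cdc20 (-2.07), Ccnb2 (-2.06) and Ccnb1 (-2.04). Top2a, the topoisomerase that untangles chromosomes, and Ndc80, an outer kinetochore subunit, were nearly even at -0.17 each, and so was Aurkb, the kinase of the passenger complex, at -0.24. These 3 were above 0 in 3, 3 and 1 of the 11 libraries. Cdk1 (-0.60) and Mki67 (-0.54) lay between them and the late genes. The cells were chosen on member UMIs, so these values are a description.

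**Figure D2:**
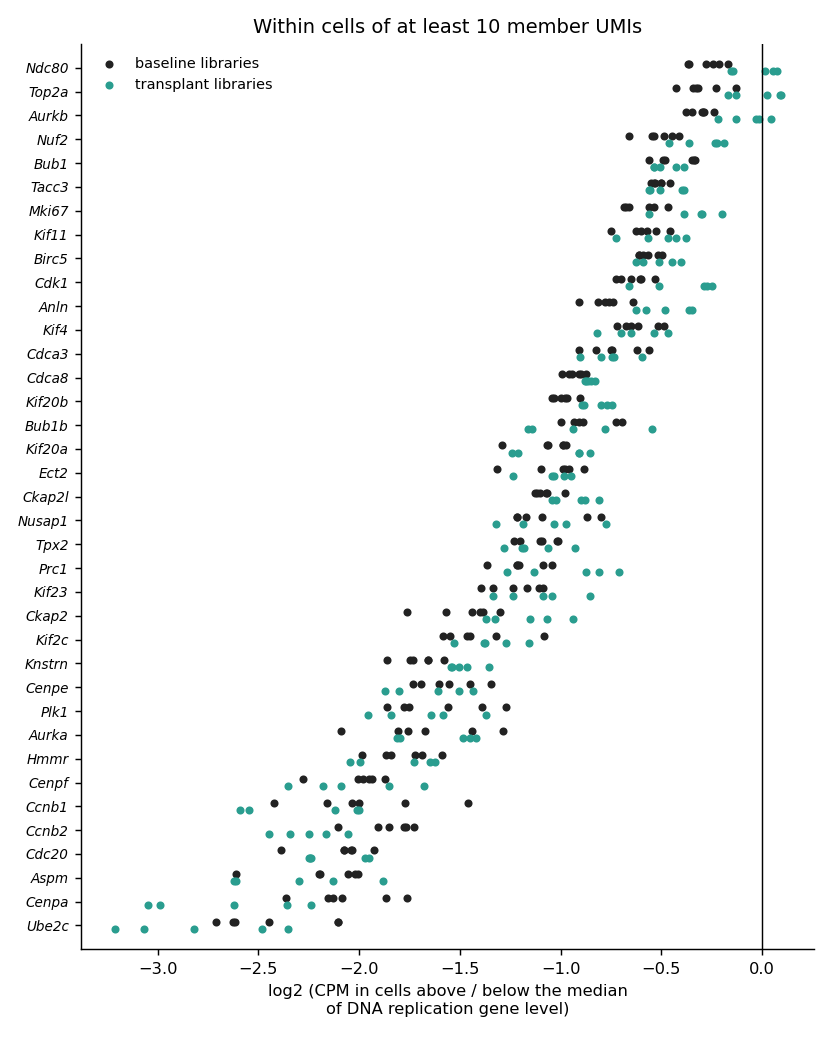
Log2 ratio of CPM (x axis) of each of the 37 members (y axis) in cells above against below the median replication gene level, among cells with at least 10 member UMIs. Each point is 1 library (black, the 6 baseline libraries; green, the 5 transplant libraries). Ube2c, with a median of -2.62, lies furthest to the left, and Ndc80 and Top2a, at -0.17, lie closest to 0.

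Among the genes outside the set whose levels ran most closely with the members across cells were Knl1 (median Pearson's r over 11 libraries 0.81, from 0.65 to 0.85), Ccna2 (0.81), Kif15 (0.77), Hmgb2 (0.76), Cks2 (0.75), Hist1h3c (0.74), H2afx (0.74), Incenp (0.73) and Pimreg (0.72). Within the set, r with the members' sum ran from 0.60 for Ckap2 to 0.90 for Birc5. These correlations share the depth of each cell, and a member is part of the sum it was set against.

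At baseline the summed level of the members was highest in Ezh2 KO. It was 2367 and 2104 CPM in the male and female Controls, 3305 and 2722 in Ezh2 KO, and 2227 and 2299 in the libraries labelled Jarid2 KO. The group means were 2235 ± 186, 3013 ± 412 and 2263 ± 50.8 CPM (SD, n = 2). Both Ezh2 KO libraries exceeded the other 4, while Control and the libraries labelled Jarid2 KO overlapped. No p is given for the sums, since the smallest that exact permutation of 2 against 2 libraries allows, two-sided, is 0.333. In such sums, more cells with these transcripts and more transcripts per cell cannot be told apart, and the mitosis-high shares above are the count of cells.

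**Figure D3:**
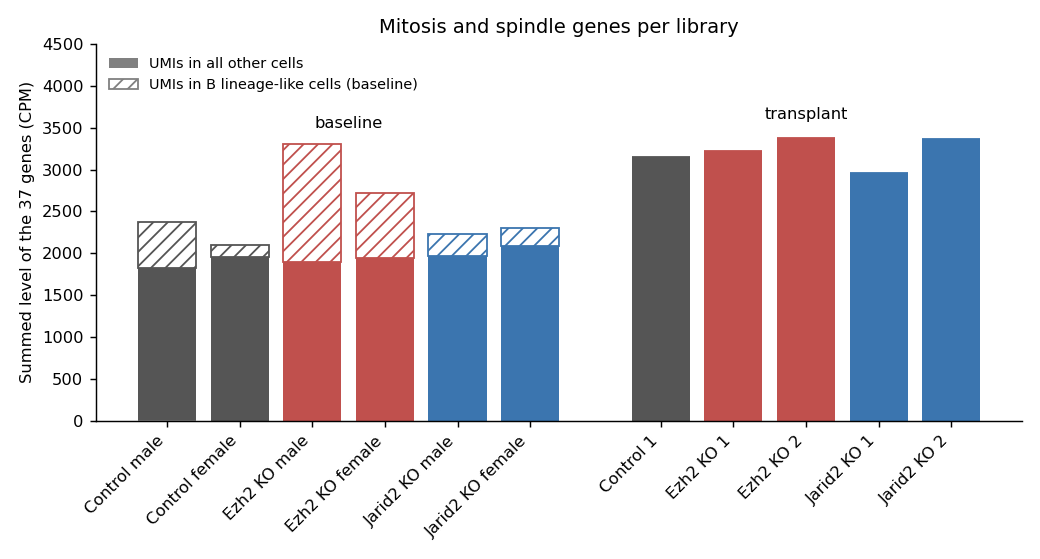
Summed level of the 37 members in CPM (y axis, from 0) in each of the 11 libraries (x axis), 1 bar per library without error bars (grey Control, red Ezh2 KO, blue the libraries labelled Jarid2 KO). The hatched part of each baseline bar is the part of these UMIs that lay in B lineage-like cells, 42.6% and 28.7% in the male and female Ezh2 KO libraries. Bars of the baseline Ezh2 KO libraries reach 3305 and 2722, above the other 4 baseline libraries.

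Ezh2 KO libraries had higher levels of 13 of the 37 members than Control at baseline by edgeR's quasi-likelihood test with Benjamini-Hochberg adjustment over 18196 genes at a false discovery rate (FDR) of 0.05. Over all genes tested 3.61% were called, 2.92% as higher. The log2 changes of the 37 members were all positive with a median of 0.46, against -0.004 over all genes, and 36 had an unadjusted p under 0.05. The share of all genes at an unadjusted p under 0.05 is not given, here and below. Counts at that p therefore cannot be set against the shares of all genes called, which use the stricter FDR. In 33 members both Ezh2 KO libraries lay above both Controls, as did 14.8% of the 9140 genes at 10 CPM or more.

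Of the genes of anaphase, Ube2c stood at 127 and 103 CPM in the male and female Controls and at 207 and 176 in Ezh2 KO, so that the groups did not overlap. Its log2 change was 0.78 (SE 0.14, edgeR FDR 0.0499). Cdc20, the activator of the anaphase-promoting complex, stood at 52.9 and 48.5 against 78.8 and 64.1 CPM, also without overlap, but with an FDR of 0.0578 (0.54) it was not called by edgeR. DESeq2 called it (FDR 0.000125).

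Of the entry kinases and cyclins, Cdk1 stood at 92.6 and 85.1 CPM in Control and at 134 and 120 in Ezh2 KO. The lower Ezh2 KO library was well above the higher Control, and the change was 0.56 (SE 0.07, FDR 0.0318). Aurka, the kinase of the spindle poles, rose by 0.58 (19.1 and 17.8 against 29.0 and 24.6 CPM, FDR 0.0393). Aurkb rose by 0.50 (41.5 and 36 against 56.4 and 49.7 CPM, FDR 0.0316). The cyclins had changes of like size with more spread and were not called by edgeR: Ccnb1 had 0.49 (36.7 and 30.8 against 51.4 and 40.7 CPM, FDR 0.102) and Ccnb2 0.58 (FDR 0.0726). Plk1, the Polo-like kinase, had 0.63 with an SE of 0.15 and an FDR of 0.0871. DESeq2 called all 3 (FDR 0.00721, 0.000250 and 0.00241).

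The passenger genes both rose, Birc5 (survivin) by 0.65 (107 and 96.7 against 164 and 145 CPM, FDR 0.0329) and Cdca8 (borealin) by 0.44 (FDR 0.0425). The checkpoint kinases Bub1b and Bub1 rose by 0.46 (FDR 0.0342) and 0.38 (FDR 0.0468). None of the 6 kinetochore and centromere genes was called by edgeR, while DESeq2 called Nuf2 (FDR 0.0115) and Knstrn (FDR 0.0170). By edgeR, Cenpf had 0.62 (FDR 0.0707), Cenpa 0.47 (FDR 0.146), Nuf2 0.45, Knstrn 0.36, Ndc80 0.29 and Cenpe, the lowest of all members, 0.23 (FDR 0.242).

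Among spindle genes Nusap1, which binds microtubules near chromosomes, rose by 0.60 (85.5 and 69.8 against 126 and 102 CPM, edgeR FDR 0.0284) and Prc1, which bundles the central spindle, by 0.52 (FDR 0.0350). Kif11, the motor that separates the poles, rose by 0.48 (84.7 and 80.3 against 122 and 102 CPM, FDR 0.0463), and it was the only one of the 6 motors called by edgeR (the others 0.25 to 0.50), while DESeq2 called 5, all but Kif20b. Ect2, the exchange factor that starts furrowing, rose by 0.34 (FDR 0.0415). Top2a stood at 288 and 266 CPM against 413 and 331, a change of 0.47 (FDR 0.0445). Mki67 stood at 202 and 178 against 268 and 201 CPM, where the female Ezh2 KO library lay at the level of the male Control, and was not called by edgeR (0.34, FDR 0.157; DESeq2 FDR 0.0269).

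**Figure D4:**
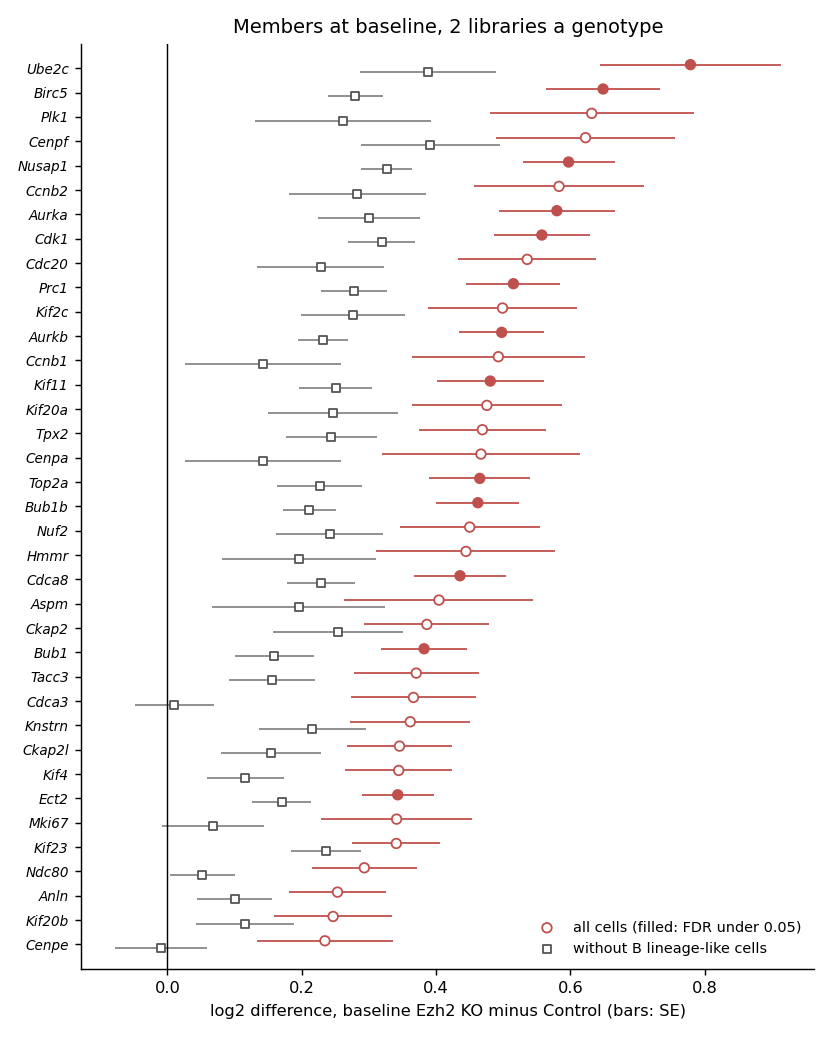
Log2 difference (x axis, edgeR, bars are SE) of each of the 37 members (y axis) in baseline Ezh2 KO against Control, with all cells (red circles, filled for the 13 members with an FDR under 0.05) and without B lineage-like cells (grey squares). With all cells the differences run from 0.23 (Cenpe) to 0.78 (Ube2c), and without B lineage-like cells their median is 0.23.

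B lineage-like cells differed between these libraries alongside the members. They made up 6.50% and 2.17% of the male and female Controls, 21.1% and 11.7% of Ezh2 KO, and 2.80% and 3.14% of the libraries labelled Jarid2 KO. All 8 B lineage markers were detected, and their sum stood at 1025 and 308 CPM in Control, 2949 and 1575 in Ezh2 KO libraries, and 443 and 437 in the libraries labelled Jarid2 KO. These cells held members at 7480 to 8614 CPM, and contributed 23.1% and 7.37% of member UMIs in Control against 42.6% and 28.7% in Ezh2 KO. Without them the summed levels were 1957 and 1985 CPM in Control and 2336 and 2159 in Ezh2 KO, a difference of 276.8 in place of 778. The libraries labelled Jarid2 KO then stood at 2035 and 2140 CPM, above both Controls and below both Ezh2 KO libraries. No member was then called in Ezh2 KO (lowest edgeR FDR 0.0600; 0.234% of all genes called), with a median log2 change of 0.23, 36 of 37 positive and 22 at an unadjusted p under 0.05. The mitosis-high shares without these cells were 21.1% and 24.3% in Control and 25.2% and 25.3% in Ezh2 KO.

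The count of 13 also depended on single libraries and on the sex term. With a library left out, the 1 remaining library of its genotype is assumed to vary like the other groups, here and in the genotype comparisons within gates. Leaving out the male Control gave 8, the female Control 1, the male Ezh2 KO 0, the female Ezh2 KO 24 and the male library labelled Jarid2 KO 21. It was 0 without the sex term and 30 by DESeq2. The shares of all genes called by DESeq2, without the sex term or with a library left out are not given in any comparison. Counts of members under these settings therefore cannot be set against such shares.

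The libraries labelled Jarid2 KO showed no member called against Control at baseline by edgeR (0.0275% of all genes called) or by DESeq2, and 1 member had an unadjusted p under 0.05. The log2 changes ran from -0.12 (Cdc20) to 0.21 (Nusap1) with a median of 0.03. Ube2c stood at 104 and 122 CPM in the male and female libraries labelled Jarid2 KO, within the Control values of 127 and 103. Cdk1 stood at 86.0 and 90.6, Top2a at 305 and 286, Mki67 at 190 and 193 and Ccnb1 at 29.3 and 33.0 CPM. In 3 members both libraries lay above both Controls and in 1 below, against 13.4% and 24.9% of all genes.

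Against Ezh2 KO, the libraries labelled Jarid2 KO had 11 members lower by edgeR, where 6.12% of all genes were called and 4.54% as lower. The median log2 difference was -0.39. These members were Ube2c (-0.78, FDR 0.0414), Birc5 (-0.69), Cdc20 (-0.66, FDR 0.0352), Cdk1 (-0.54, FDR 0.0267), Aurkb (-0.52, FDR 0.0237), Bub1b (-0.52), Aurka (-0.50, FDR 0.0408), Cdca8 (-0.41), Ect2 (-0.40), Nusap1 (-0.39) and Bub1 (-0.35). The same Ezh2 KO libraries enter this comparison and the one with Control. Without B lineage-like cells 0 were called (median -0.11, 0.695% of all genes). Leaving out the male Control gave 20, the female Control 19 and the female Ezh2 KO library 25. The count was 0 when the male Ezh2 KO library, the male library labelled Jarid2 KO or the sex term was left out. DESeq2 called 25.

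After transplantation no member was called between genotypes by edgeR. The summed level was 3150 CPM in Control, 3226 and 3382 in Ezh2 KO libraries, and 2962 and 3370 in the libraries labelled Jarid2 KO, so that Control lay within the range of the libraries labelled Jarid2 KO and just under both Ezh2 KO libraries. With 1 Control library, its spread is assumed to equal that of the knockouts. Ube2c stood at 134 CPM in Control, 164 and 164 in Ezh2 KO libraries, and 128 and 199 in the libraries labelled Jarid2 KO. Cdk1 stood at 97.1, 120 and 107, and 94.1 and 130 CPM. In both genes the libraries labelled Jarid2 KO fell on either side of Control. Top2a stood at 440 CPM in Control, above the 397 and 427 of Ezh2 KO and the 413 and 404 of the libraries labelled Jarid2 KO, and Mki67 at 345, 378 and 398, and 331 and 352.

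In Ezh2 KO against Control the changes ran from -0.22 (Nusap1) to 0.22 (Ube2c) with a median of -0.03, and 0 members had an unadjusted p under 0.05, while 4.94% of all genes were called. Cdk1 had 0.15, Ccnb1 0.01, Ccnb2 0.09, Cdc20 0.14, Plk1 0.05, Aurka -0.05, Aurkb -0.04, Cenpf -0.00, Mki67 0.09 and Top2a -0.18. In 23 members both Ezh2 KO libraries lay above the Control and in 7 below, against 51.9% and 22.8% of the 8096 genes compared. In the libraries labelled Jarid2 KO against Control the changes ran from -0.19 (Cdca8) to 0.23 (Ube2c) with a median of -0.04, 0 members at an unadjusted p under 0.05 and 0.369% of all genes called. In 3 members both of these libraries lay above the Control and in 8 below, against 37.4% and 15.9% of all genes. Between the knockouts the median was -0.003, and 3 members had an unadjusted p under 0.05, while 12.3% of all genes were called. DESeq2 called 0 members in each of the 3 comparisons. With male cells only the counts were 0 as well. B lineage markers summed to 45.4 CPM in Control, 542 and 419 in Ezh2 KO libraries, and 77.7 and 99.2 in the libraries labelled Jarid2 KO, and their part in these values was not tested.

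Whether the change in Ezh2 KO differed between the experiments was tested by the interaction of genotype and experiment. The test includes B lineage-like cells, without which the baseline change was smaller. Its transplant change rests on 1 Control library of both sexes, against Ezh2 KO libraries with at most 0.0511% cells of female type. Ezh2 itself was also lowered less at baseline than after transplantation. The part of these points in the values below was not tested. All 37 members had a lower change after transplantation, with a median log2 difference of -0.47 (from -0.82 for Nusap1 to -0.22 for Kif23), and 25 had an unadjusted p under 0.05. None passed the FDR threshold by edgeR (0.359% of 18927 genes did): the smallest FDR was 0.108 for Cdca8 (-0.61, SE 0.12), and Ube2c had -0.56 (FDR 0.585), Top2a -0.65 (FDR 0.274) and Cdk1 -0.41 (FDR 0.585). DESeq2 called 5 members. For the libraries labelled Jarid2 KO against Control edgeR and DESeq2 called 0 members (0.0% of all genes by edgeR), with changes from -0.34 (Nusap1) to 0.24 (Ube2c). Between the knockouts all 37 differences were positive (median 0.41), 27 had an unadjusted p under 0.05, the smallest edgeR FDR was 0.0590 for Aurka (0.57), 2.31% of all genes were called, and DESeq2 called 7 members. The count between the knockouts was 2 by edgeR without the female baseline Ezh2 KO library.

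Member levels differed between gates set on surface antibodies, which use no transcript, at baseline. Gates were set by ranks within each library and carry the names of the progenitor types sorted with these antibodies: stem cells (HSC) as CD150 high and CD48 low, MPP2 as CD150 high and CD48 high, MPP3 as CD150 low, CD48 high and CD135 low, and MPP4, the lymphoid-leaning progenitors, as CD150 low and CD135 high. The members' summed level in the HSC gate was 1526 and 1712 CPM in Control (male, female), 2107 and 1683 in Ezh2 KO and 1329 and 1796 in the libraries labelled Jarid2 KO. In the MPP2 gate it was 4083 and 3252, 6034 and 4898, and 3105 and 3659. In the MPP3 gate it was 3663 and 3034, 4997 and 4431, and 3563 and 3327. In the MPP4 gate it was 2386 and 2090, 2725 and 2370, and 2591 and 2019. Within every library the HSC gate was lowest, MPP4 next, and MPP2 and MPP3 highest. With stricter ranks, which left 5 to 44 cells in MPP2, the HSC gate was still lowest, but MPP2 lay under MPP4 in the female Control (2385 against 2820 CPM) and the male library labelled Jarid2 KO (2532 against 3116).

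By edgeR with the library as a block, 37 of 37 members were higher in MPP2 than in HSC (57.2% of 14495 genes called, 28.9% as higher), 37 in MPP3 (55.2% called, 27.2% as higher) and 36 in MPP4 (48.4% called, 24.2% as higher). The median log2 differences were 1.38, 1.21 and 0.46. The 3 comparisons share the HSC gate. The stem cell marker sum was 1938 to 2631 CPM in the HSC gate, 395 to 724 in MPP2, 641 to 1016 in MPP3 and 836 to 1553 in MPP4.

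Ube2c stood at 81.3 ± 23.8 CPM in the HSC gate, 266 ± 125 in MPP2, 235 ± 79.1 in MPP3 and 122 ± 18.9 in MPP4 (SD, n = 6 libraries). Its difference from HSC was 1.75 in MPP2 (SE 0.16, edgeR FDR 2.74e-08), 1.59 in MPP3 and 0.67 in MPP4 (FDR 0.00107). Most entry genes had this order: Ccnb1 had 1.58, 1.45 and 0.41, Plk1 1.58, 1.46 and 0.40, Ccnb2 1.46, 1.22 and 0.54, and Cdk1 1.35, 1.17 and 0.38 in MPP2, MPP3 and MPP4. Aurka had 1.41, 1.41 and 0.66, Aurkb 1.5, 1.39 and 0.50, Cdc20 1.28, 1.21 and 0.43, Cenpf 1.37, 1.22 and 0.70, and Mki67 1.43, 1.15 and 0.43. Top2a, at 200 ± 26.6 CPM in HSC, 499 ± 119 in MPP2, 500 ± 89.2 in MPP3 and 315 ± 39.3 in MPP4, had 1.40, 1.39 and 0.70.

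Ect2 and Kif23, picked after their values were seen, departed from that order. Ect2 stood at 20.2 ± 4.3 CPM in HSC, 61.2 ± 22.8 in MPP2, 76.2 ± 8.4 in MPP3 and 52.5 ± 4.8 in MPP4, with differences from HSC of 1.67, 2.00 (SE 0.14, edgeR FDR 1.13e-09) and 1.44 (SE 0.13, FDR 2.46e-08). In MPP4 this was the largest difference of the 37. Kif23, which works with Ect2 at the central spindle, stood at 43.9 ± 5.1, 70.7 ± 26.7, 84.4 ± 10.3 and 83.9 ± 11.2 CPM, so that MPP4 and MPP3 overlapped, and it had 0.76, the smallest difference, in MPP2 and 0.97 in MPP4. Ckap2l, a spindle protein of neural and other progenitors, had the smallest difference in MPP3 (0.69) and in MPP4 (0.11, FDR 0.36), where it was the member not called.

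**Figure D5:**
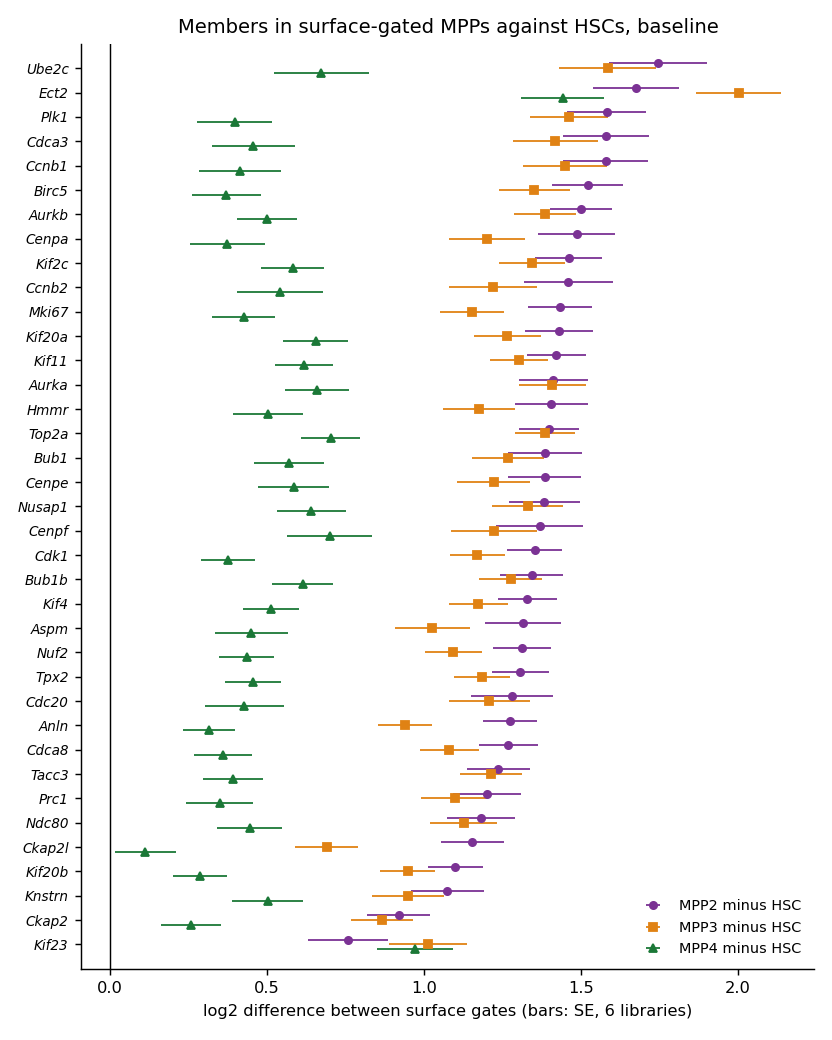
Log2 difference from the HSC gate (x axis, edgeR, bars are SE, 6 baseline libraries) of each of the 37 members (y axis) in the MPP2 (purple circles), MPP3 (orange squares) and MPP4 (green triangles) gates. MPP4 lies to the left of MPP2 and MPP3 for all members but Kif23, where it exceeds MPP2 (0.97 against 0.76), and Ect2 in MPP3 (2.00) is the highest point.

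Mitosis-high cells had the same ranking. They made up 11.4% to 21.7% of the HSC gate, 45.2% to 62.6% of MPP2, 42.4% to 61.8% of MPP3 and 20.5% to 28.2% of MPP4. B lineage-like cells were unequal between the gates, at 0% to 4.80% of HSC, 1.24% to 82.8% of MPP2, 9.52% to 41.1% of MPP3 and 0.323% to 1.20% of MPP4. Without them 37, 37 and 36 members were still called as higher, with medians of 1.20, 0.71 and 0.48 (59.1%, 51.7% and 56.0% of all genes called).

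The genotype comparison within gates had its calls in MPP2 and MPP3. In the HSC gate 0 members were called in Ezh2 KO against Control by edgeR (0.212% of all genes; 6 members at an unadjusted p under 0.05; 0 by DESeq2), with a median log2 change of 0.27 and all 37 positive. In MPP2 18 members were called as higher (14.9% of all genes called, 9.51% as higher; median 0.61). Ube2c stood at 223 and 158 CPM there in the male and female Controls and at 472 and 364 in Ezh2 KO, a change of 1.23 (SE 0.20, edgeR FDR 0.0131), followed by Cdc20 (0.99, FDR 0.0164), Plk1 (0.97, FDR 0.0148), Ccnb2 (0.92, FDR 0.0341) and Aurka (0.91, FDR 0.0356). Cdk1 (0.63, FDR 0.0185), Top2a (0.61, FDR 0.0327) and Aurkb (0.58, FDR 0.0265) were called too, while Cenpf (0.93, FDR 0.0681), Ccnb1 (0.79, FDR 0.0608) and Mki67 (0.42, FDR 0.154) were not called by edgeR. DESeq2 called 19 members there, with Ccnb1 among them (FDR 0.0433).

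In MPP3 30 members were called as higher in Ezh2 KO (6.81% of all genes called, 4.7% as higher; median 0.53), with Ube2c at 0.92 (SE 0.13, edgeR FDR 0.00951), Birc5 at 0.80 (FDR 0.00319), Ccnb2 at 0.74 (FDR 0.0132), Ccnb1 at 0.72 (FDR 0.0149), Cenpf at 0.71 (FDR 0.00958), Aurka at 0.68 (FDR 0.00951) and Cdc20 at 0.63 (FDR 0.0179). Plk1 (0.62, FDR 0.0289), Cdk1 (0.60, FDR 0.00759), Aurkb (0.60, FDR 0.0191), Top2a (0.53, FDR 0.00672) and Mki67 (0.48, FDR 0.0118) were called as well. DESeq2 called 16 members in MPP3, without Aurka (FDR 0.0806) and Plk1 (FDR 0.164). The 7 members not called there by edgeR were Anln, Ndc80, Kif23, Cenpe, Ect2, Kif20b and Tacc3. In MPP4 0 were called (0.960% of all genes; median 0.20; 19 members at an unadjusted p under 0.05; 2 by DESeq2).

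B lineage-like cells made up 82.8% and 56.2% of the MPP2 gate in Ezh2 KO against 21.6% and 1.24% in Control, and 41.1% and 25.3% of MPP3 against 21.3% and 9.52%. Marker sums of other types moved with the MPP2 gate too: erythroid markers were at 451 and 777 CPM in Ezh2 KO, against 1592 and 2072 for Controls and 2585 and 3145 for the libraries labelled Jarid2 KO, and megakaryocyte markers at 96.4 and 309, against 553 and 788, and 646 and 658. The part of these types in the member levels was not tested. The gate names therefore stand for antibody ranks and not for cell types. Without B lineage-like cells the counts were 1 in MPP2 (Ube2c 0.63, SE 0.11, edgeR FDR 0.0215; 1.35% of all genes) and 0 in MPP3 (median 0.13; 0.513%). The MPP2 count was 5 without the female Control, 6 without the male Ezh2 KO and 32 without the female Ezh2 KO library, and the MPP3 count 6, 5 and 3 without the same libraries. Without the female Ezh2 KO library 27 members were called in the HSC gate. In MPP4 leaving out the male library labelled Jarid2 KO gave 7 and the female 6. The calls in MPP2 and MPP3 also rested on how the gates were set: gates on log antibody counts gave 0 and 0, stricter ranks 0 and 1, and the fit without the sex term 0 and 5.

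The libraries labelled Jarid2 KO had 0 members called against Control in the HSC (0.0132% of all genes), MPP2 (0.00767%), MPP3 (0.434%) and MPP4 (0.705%) gates by edgeR, and 0 in each by DESeq2. At an unadjusted p under 0.05 there were 0, 0, 3 and 9 members. Against Ezh2 KO the libraries labelled Jarid2 KO had 0 members lower in HSC (0.384%), 21 in MPP2 (18.6% of all genes called, 10.9% as lower), 22 in MPP3 (7.67% called, 5.05% as lower) and 3 in MPP4 (2.93% called, 2.01% as lower: Ube2c -0.32, Cdc20 -0.37 and Cenpa -0.34). DESeq2 called 0, 18, 13 and 3, with Cdc20 not among those in MPP4 (FDR 0.0972). Without B lineage-like cells these were 0, 6 (Ect2, Cdc20, Prc1, Ckap2, Kif23 and Cdk1), 0 and 3. The shares of all genes called in those fits are not given, so these counts cannot be set against them. The MPP2 count was 12 without the male Ezh2 KO library and 0 without the male library labelled Jarid2 KO, and the MPP3 count 4 without the male Ezh2 KO, 5 without the female Ezh2 KO and 1 without the male library labelled Jarid2 KO. In MPP4 it was 1 without the female Control or the male Ezh2 KO, and 0 without the female Ezh2 KO or the female library labelled Jarid2 KO. Gates on log antibody counts gave 0 in MPP2, 22 in MPP3 and 5 in MPP4, stricter ranks 0, 21 and 3, and the fit without the sex term 8, 3 and 0.

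Transcript classes, clustered without the members and other cycle genes and named from fixed markers, ranked the members as follows at baseline. The summed level was 7900 ± 391 CPM in B lineage-like cells, 4224 ± 375 in megakaryocyte-like, 3713 ± 312 in erythroid-like, 2979 ± 265 in lymphoid-like, 2512 ± 347 in myeloid-like, 1034 ± 565 in dendritic-like, 686 ± 151 in T or innate lymphoid-like and 372 ± 59.8 in HSC-like cells (SD, n = 6). Megakaryocyte-like and erythroid-like cells lay within their summed SDs of each other, as did lymphoid-like and myeloid-like cells, and dendritic-like and T or innate lymphoid-like cells. Some classes were small, with 12 to 97 myeloid-like, 13 to 57 dendritic-like and 47 to 243 erythroid-like cells per library. The dendritic-like level ran from 117 to 1879 CPM between libraries. Ube2c stood at 619 ± 72.9 CPM in B lineage-like and 12 ± 3.28 in HSC-like cells, Top2a at 993 ± 80.8 and 35.4 ± 5.78, and Mki67 at 673 ± 67.9 and 22.4 ± 4.51. Kif23 was the exception among the named members, at 146 ± 15.5 in B lineage-like, 28.6 ± 3.75 in erythroid-like and 37.8 ± 7.60 CPM in HSC-like cells, so that erythroid-like cells did not exceed HSC-like cells in it. Baseline clusters 7 and 14 stayed unnamed and were led by mitotic genes (among them Aspm, Hmmr, Cenpf and Nusap1 in the first, and Ccnb2, Knstrn, Cenpa and Cdc20 in the second), although members had been left out of the clustering. Unnamed cells were 50.1% to 65.6% of each baseline library and held 35.2% to 60.2% of its member UMIs, at 1685 to 2253 CPM, and they count in no class. HSC-like cells were 42.3% to 60.7% of the HSC gate, so that their level is not that of the gate.

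Mitosis-high cells were 1.25% to 2.30% of HSC-like cells at baseline, with median depths of 8569 to 10185 UMIs, and 77.7% to 90.2% of B lineage-like cells, with 10909 to 16095. They were 60.5% to 88.3% of erythroid-like, 50.7% to 61.0% of megakaryocyte-like and 34.4% to 44.2% of lymphoid-like cells. These class shares and levels leave out the unnamed cells, with the clusters led by mitotic genes among them. How many unnamed cells were stem-like or B lineage-like was not tested, and the fits without B lineage-like cells kept all of them. After transplantation the summed levels were 3906 ± 220 CPM in basophil or mast-like, 3393 ± 401 in lymphoid-like, 3320 ± 289 in HSC-like and 2658 ± 200 in myeloid-like cells (SD, n = 5). The transplant HSC-like class was 36.3% to 47.0% mitosis-high. It joins a cluster with 6 of 12 stem cell markers (37.7% to 48.3% mitosis-high) and a small cluster of 59 to 103 cells with 10 of 12 (5.08% to 20.0%), whereas all 12 markers were raised in the baseline HSC-like cluster. The same name thus covers different cells in the experiments, and no comparison was made between them.

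Within classes few members differed between genotypes by edgeR. In B lineage-like cells Ect2 was lower in Ezh2 KO than in Control (-0.31, SE 0.09, FDR 0.0444; 9.16% of all genes called, 1.86% as lower), and it was the only member called there. In T or innate lymphoid-like cells 22 members were tested. Kif23 was higher in the libraries labelled Jarid2 KO than in Control (1.14, FDR 0.0444, with 3.04% called and 0.989% as higher). It was also higher than in Ezh2 KO (0.92, FDR 0.0357, with 5.31% called and 1.75% as higher). The other tested members went the other way against Control, except Ube2c (0.07), and none of them was called. Among them were Ect2 (-1.46), Cdk1 (-1.24) and Mki67 (-0.97). Against Ezh2 KO all tested members but Kif23 were lower, and none of these was called. After transplantation Anln, an actin-binding ring protein, was higher in HSC-like cells of the libraries labelled Jarid2 KO than in Ezh2 KO (0.42, FDR 0.0422; 6.12% called, 2.48% as higher), and Birc5 was lower in lymphoid-like cells (-0.50, FDR 0.0475; 8.39% called, 5.01% as lower). In the other comparisons within the 9 classes that could be tested, 0 members were called. For Ezh2 KO against Control the shares of all genes called were 0.765% in baseline lymphoid-like, 0.283% in HSC-like, 0.411% in megakaryocyte-like and 0.333% in T or innate lymphoid-like cells. After transplantation they were 3.27% in HSC-like, 0.861% in basophil or mast-like, 0.739% in myeloid-like and 3.11% in lymphoid-like cells, where the median member change was 0.34, with 37 of 37 positive, 18 members at an unadjusted p under 0.05 and a lowest FDR of 0.0550. The libraries labelled Jarid2 KO had a median of 0.24 there against the same Control, with 36 positive and 8 at an unadjusted p under 0.05. The transplant lymphoid-like class made up 8.87% of cells in Control, 29.7% and 27.2% in Ezh2 KO libraries, and 13.1% and 14.7% in the libraries labelled Jarid2 KO. Whether it held the same kinds of cells in each genotype was not tested. In baseline HSC-like cells the libraries labelled Jarid2 KO had a median of 0.26 with 10 members at an unadjusted p under 0.05, and Ezh2 KO 0.10 with 1. For the libraries labelled Jarid2 KO against Control they were 0.0347% in baseline B lineage-like, 0.346% in HSC-like, 0.975% in lymphoid-like and 0.193% in megakaryocyte-like cells, and 0.215%, 0.0355%, 0.147% and 0.0487% in transplant HSC-like, basophil or mast-like, lymphoid-like and myeloid-like cells. Between the knockouts they were 9.38% in baseline B lineage-like, 0.629% in HSC-like, 0.938% in lymphoid-like and 0.537% in megakaryocyte-like cells, and 2.8% and 4.74% in transplant basophil or mast-like and myeloid-like cells.

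Other cycle genes were read from fixed lists. Over all genes 2.92% were called as higher in baseline Ezh2 KO than in Control, 0.234% in either direction without B lineage-like cells, 0.0275% in the libraries labelled Jarid2 KO against Control, and 4.94% in transplant Ezh2 KO. At baseline Ezh2 KO had higher levels than Control by edgeR for 13 of 38 other mitotic genes (median log2 change 0.37), with Ccna2, the S and G2 phase cyclin, at 0.68, Pbk at 0.58, Spc25 at 0.57 and Racgap1 at 0.55. Of the replication genes 2 of 35 were higher (median 0.13; Rrm2 0.75 and Slbp 0.32), of the regulators of cycle transcription 2 of 16 (E2f2 0.96 and E2f7 0.44), of the anaphase-promoting complex and its inhibitors 1 of 17 (Fbxo5 0.46), and of condensin and cohesin 1 of 13 (Ncaph 0.49). The inhibitors of cyclin-dependent kinases had 5 of 7 higher (median 0.71), led by Cdkn2a (5.82), Cdkn2b (3.18), Cdkn1a (1.18) and Cdkn2c (0.71). No gene of these lists was lower, and without B lineage-like cells 0 were called in each list. The changes in the inhibitors were then 0.95 for Cdkn2a (SE 0.50, edgeR FDR 0.435), 0.41 for Cdkn1a (SE 0.12, FDR 0.233) and 0.39 for Cdkn2c (SE 0.05, FDR 0.0617), and Cdkn2b did not pass the filter on low counts. Cdkn2a, the gene of p16 and p19Arf, stood at 0.191 and 0.153 CPM in Control, 9.53 and 9.36 in Ezh2 KO libraries, and 0.132 and 0.0830 in the libraries labelled Jarid2 KO. The libraries labelled Jarid2 KO had 0 genes of these lists called against Control at baseline. After transplantation the lists held 2 genes higher in Ezh2 KO than in Control, both of 6 tested inhibitors: Cdkn1c (0.82, edgeR FDR 0.0248) and Cdkn2a, for which Control had 0 UMIs, Ezh2 KO 411 and 239, and the libraries labelled Jarid2 KO 1 and 4.

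The other mitotic genes were also higher in the MPP gates than in HSC. Beside the 28.9%, 27.2% and 24.2% of all genes called as higher in MPP2, MPP3 and MPP4, in MPP2 38 of 38 were higher than in HSC by edgeR (median log2 difference 1.25), in MPP3 37 (1.15) and in MPP4 34, with 1 lower (0.44). Replication genes were higher in 35 of 35 in MPP2 (0.77), 35 in MPP3 (0.75) and 20 in MPP4, with 1 lower (0.20). Differences between the lists were not tested. Subunits and regulators of the anaphase-promoting complex, which act on the members' proteins, were higher in 12, 10 and 7 of 17 and lower in 0, 1 and 1, with medians of 0.24, 0.14 and 0.01.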

How the data were processed

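The authors deposited raw UMI counts for each feature in each cell barcode, made with Cell Ranger 7.2.0 (baseline) and 6.1.2 (transplant) per the file headers, whereas the submitters' processing notes name Cell Ranger 3.1.0. The handling of intronic reads is not given in the sources used here, and 6 CUT&Tag samples of the series were not analysed here.

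Barcodes with at least 1000 UMIs, 500 genes and at most 10% mitochondrial UMIs were kept. The mitochondrial limit was exceeded by 2.82% to 5.82% of baseline and 25.7% to 43.4% of transplant barcodes. Predicted doublets (the highest Scrublet scores, 0.8% per 1000 barcodes) were removed. Counting error was small beside replicate spread: chi-square over its degrees of freedom ran from 32.4 to 262 between libraries of one group. Raw counts were summed per library, and per surface gate or class, and compared with two-sided edgeR 4.0.16 quasi-likelihood tests (TMM, filterByExpr, Benjamini-Hochberg over all genes tested, FDR 0.05), with sex as a term at baseline. At baseline replicate numbers pair libraries by sex, as labelled. Numbers of transplant libraries did not pair them (correlation of deviations 0.0184 over 8123 genes). The SE given with edgeR changes was computed as the absolute log2 change over the square root of the F statistic. It is not reliable for very small changes.

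CPM scales counts to the total of kept UMIs. Thinning to 5000 UMIs left out shallower cells: at baseline 342 and 393 (Control, male and female), 633 and 723 (Ezh2 KO) and 488 and 460 (labelled Jarid2 KO), and after transplantation 627 (Control), 273 and 391 (Ezh2 KO) and 708 and 350 (labelled Jarid2 KO). Antibody counts were centred log ratios cut at the 50th and 75th percentiles within a library. Classes came from Leiden clusters of Control cells (scanpy 1.11.5, leidenalg 0.10.2) found without members and genes correlated with the cycle (2869 and 2983 genes left out), named when at least 3 fixed markers were raised 1.5-fold, and passed to other cells by nearest neighbours.

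The members and lists were chosen with earlier results of these data known. In comparisons of whole libraries and gates 11 members were named (Mki67, Top2a, Cdk1, Ccnb1, Ccnb2, Cdc20, Plk1, Aurka, Aurkb, Ube2c and Cenpf) with up to 12 further called members, and up to 4 called genes per other list. Other members named were chosen after their values were seen. Alternatives were DESeq2 1.42.0, other cell and count filters, other thinning, gates and clustering, fits without the sex term or with a replicate block, male cells only, and each library left out. The fits without B lineage-like cells were added after the data had been seen. A gene among those most like the members across cells is not reported here. The edgeR and DESeq2 fits of genotypes in whole libraries were tried on simulated counts, with results not given here.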

Additional observations from a re-analysis of the deposited data

Results flagged for a closer look

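The share of mitosis-high cells moved in opposite directions in Ezh2 KO in the experiments. At baseline Ezh2 KO exceeded Control by 7.40 percentage points, with both libraries above both Controls, and after transplantation it lay at -7.72 points from Control, with both libraries below the 1 Control library. The libraries labelled Jarid2 KO lay at -1.49 points from Control at baseline and at -6.40 after transplantation, where both were also below the 1 Control library, and without thinning the second value was 0.897. The share is given for its change of direction, so the difference of -15.1 points between the experiments in Ezh2 KO is a description, and an exact two-sided permutation of the labels within each experiment cannot give a p under 0.0556. Barcodes over the mitochondrial limit, which were left out, were 43.4% of the transplant Control, 25.7% and 27.4% of Ezh2 KO libraries and 36.6% and 37.4% of the libraries labelled Jarid2 KO, and their part in the transplant shares was not tested. With at least 10 member UMIs the transplant value was -4.25 points. The members' summed level in CPM did not show the pattern: after transplantation it was 3226 and 3382 CPM in Ezh2 KO libraries against 3150 in Control. Of the 37 members, 23 lay above Control in both Ezh2 KO libraries and 7 below it in both, against 51.9% and 22.8% of all genes. These levels lack the TMM scaling of the edgeR fits, in which the median member change was slightly negative, so this contrast depends on the scale. B lineage-like cells moved with the baseline value, which was 2.52 points without them.

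Top2a showed opposite directions in its level. Its mean in Ezh2 KO was 95.3 CPM above Control at baseline, with both libraries higher, and -28.6 CPM from Control after transplantation, with both libraries lower. Top2a is given for this pattern, so its interaction is a description. On the log2 scale, edgeR's interaction of genotype and experiment gave -0.65 for Top2a (FDR 0.274 over all genes) and DESeq2's -0.66 (FDR 0.0316). Another 6 members (Kif20a, Kif20b, Prc1, Nuf2, Cdca8 and Tacc3) had Ezh2 KO libraries on opposite sides of Control in the same way, 7 of 37 with Top2a, against 16.6% of the 8858 genes at 10 CPM or more on opposite sides in either order. In the libraries labelled Jarid2 KO, Prc1 was the 1 member on opposite sides, against 8.13% of genes.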

How the results depend on the processing

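In 318 of the alternatives tried, a count of called members stayed within 1.5 times of its value or a level within 1 SD. Of the others, 34 were classed as moved, 13 as stronger and 12 as weaker. These exceptions follow, and the cause was not tested unless stated. Changed counts between the knockouts within gates stand beside those results above. For Ezh2 KO against Control at baseline (13 members called by edgeR) DESeq2 called 30, the fit without the sex term (no replicate block) 0, the fit without B lineage-like cells 0, and leaving out 1 library gave 0 to 24. Between the knockouts (11) DESeq2 called 25, no filter on low counts gave 19, all deposited barcodes 18, no sex term 0, no B lineage-like cells 0, and leaving out 1 library 0 to 25. For the interaction, DESeq2 called 5 members for Ezh2 KO and 7 between the knockouts (0 each by edgeR), doublets kept and all barcodes gave 1 each between the knockouts, and leaving out 1 library 0 to 2. In the HSC gate leaving out 1 library gave 0 to 27 for Ezh2 KO against Control. In MPP2 (18) no sex term, gates on log antibody counts and stricter ranks each gave 0, no B lineage-like cells 1, and leaving out 1 library 5 to 32. In MPP3 (30) DESeq2 called 16, no sex term gave 5, log antibody counts 0, stricter ranks 1, no B lineage-like cells 0, and leaving out 1 library 3 to 34. In MPP4 (0) DESeq2 called 2, no filter gave 6, all barcodes 1, and leaving out 1 library 0 to 7, and for the libraries labelled Jarid2 KO against Control 0 to 1.

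Ezh2 KO exceeded Control at baseline by 7.40 points of mitosis-high cells and 778 CPM of summed level, and by 2.52 points and 276.8 CPM without B lineage-like cells. After transplantation the difference of -7.72 points was -4.25 with at least 10 member UMIs and -5.32 when thinned to 3000 UMIs, and that of the libraries labelled Jarid2 KO (-6.40) changed direction to 0.897 without thinning. The median library had 94.9% and 93.6% of the median member's UMIs in mitosis-high cells at baseline and after transplantation, and 90.1% and 85.7% with at least 10 member UMIs. With doublets kept the summed level was 459 CPM in baseline HSC-like, 909 in T or innate lymphoid-like and 1602 in dendritic-like cells, and with doubled cluster resolution 567 in HSC-like, 3503 in megakaryocyte-like and 3148 in transplant basophil or mast-like cells.

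A replicate block over the transplant knockouts, with Control left out, gave 0 members and 1453 genes in all, against 1930 without it, and a block with the numbers crossed, added after the data had been seen, also gave 0 members. As the numbers do not pair those libraries, this bears on no result. Of single named genes, 1251 results kept their side of the threshold, 52 lost a call and 50 gained one. Depth limits single cells: outside mitosis-high cells the 37 members together averaged 1.04 to 1.22 of 5000 UMIs at baseline, so single members cannot be read there.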

Other observations

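Among barcodes marked as doublets, 26.9% to 45.8% at baseline and 57.2% to 74.7% after transplantation held high member UMIs by the same cut, against 23.4% to 34.6% and 48.9% to 58.1% of kept cells.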
